A study of Mus musculus with 6 samples.

Results

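Abcb1a RNA was higher in the liver of each of 3 mice fed a high-cholesterol diet than in any of 3 mice fed a regular diet, while the diets overlapped for its closest relative Abcb1b. Both genes belong to a group of 5 efflux pump genes, Abcb1a, Abcb1b, Abcc4, Abcc6 and Abcg2, which were taken by their symbols from the 20673 genes of the deposited tables and joined to the counts by gene identifier. Abcb1a was chosen by its measured difference in RNA level between these same diets, and the other 4 as relatives of it, so the values of Abcb1a are a description of that rise and carry no test. All 5 genes had enough counts to be tested, among 13105 genes that were. Of these 13105 genes, 14.0% had each HCD liver above every RD liver.

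C57BL/6J mice received the regular diet (RD, a standard chow) or a high-cholesterol diet (HCD, enriched in fat and cholesterol and containing sodium cholate) for 3 days, and RNA from 1 liver per library was sequenced (3 RD and 3 HCD livers). The comparison asks how this short feeding changed liver RNA, and the cholesterol, fat and cholate of the HCD cannot be told apart in it. The study used male and female mice of about 3 months, and which livers came from which sex was not stated. The livers held 13771630 to 23129576 gene counts with RD and 13935491 to 18545549 with HCD. HCD replicate 1 stood apart in its sex-linked genes: Xist, the RNA that coats the inactive X chromosome of female cells, had 5032 counts in it and 0 in the other 5 livers, and Ddx3y, Eif2s3y, Kdm5d and Uty, which lie on the Y chromosome, had 0 counts there and between 65 and 1229 in the others. By these genes HCD replicate 1 read as female and the other 5 livers, all RD livers among them, as male. Within HCD, sex cannot be told apart from this liver. The fold changes of the 5 pumps are therefore given with and without HCD replicate 1. Hepatocyte markers had summed levels of 90000 to 123000 CPM with RD and 97300 to 137000 CPM with HCD (CPM, counts of a gene scaled to a common library total with TMM factors), and 0 of these 8 genes passed edgeR's test, where 3.27% of all genes tested did. DESeq2 called 1 of them and 6.97% of the 14223 genes to which it gave an adjusted p, and in edgeR 1 of them and 20.9% of all genes tested had an unadjusted p under 0.05.

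ABC transporters are membrane proteins that use ATP to move substrates out of cells. Abcb1a and Abcb1b encode the mouse forms of P-glycoprotein, which exports many drugs and in hepatocytes faces the bile canaliculus. Abcc4 encodes MRP4, which returns bile acid conjugates, nucleotides and drugs to the blood, and Abcc6 encodes MRP6, a basolateral hepatocyte protein whose loss causes ectopic mineralization. Abcg2 encodes BCRP, a canalicular half-transporter for sulfate conjugates, urate and drugs. In liver several of these genes are known to respond to the nuclear receptors PXR and CAR and to the oxidative stress factor NRF2. A whole liver was measured, so more cells of a type and more RNA per cell cannot be told apart in any value below.

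The genes lie at 4 places in the genome (GENCODE M21, build GRCm38). Abcb1a (ENSMUSG00000040584) spans chr5:8660077-8748575 on the plus strand, and Abcb1b (ENSMUSG00000028970) follows at chr5:8798147-8866315 on the same strand after a gap of 49571 bases. Abcb4, the phospholipid exporter of the same subfamily, begins 27401 bases further on. Abcc4 (ENSMUSG00000032849) lies at chr14:118482692-118706219 on the minus strand, Abcc6 (ENSMUSG00000030834) at chr7:45967555-46030302 on the minus strand, and Abcg2 (ENSMUSG00000029802) at chr6:58584523-58695676 on the plus strand. The submitters' processing notes name build GRCm39, and the deposited tables hold no coordinates, so these positions come from the annotation alone. On the opposite strand the annotation has Gm42686 across 553 exonic bases of Abcb1a and Gm5106 across 143 exonic bases of Abcb1b, and whether counting used strand is not stated.

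Whether counts can separate Abcb1a from Abcb1b depends on how far their transcripts differ. The transcripts were 87.7% identical over 4005 aligned bases, and 7.49% of all 100-base windows of the Abcb1a transcript (367 of 4898) also occurred exactly in that of Abcb1b. None of the windows of Abcc4, Abcc6 or Abcg2 occurred in another of the 5 genes. The longest shared run is shown because a read inside it cannot be given to 1 of the pair. It is 338 bases of coding sequence in exons 13 and 14 of both transcripts, chr5:8702387-8702944 for Abcb1a and chr5:8824707-8825264 for Abcb1b with the intron included, of which the first 150, all in exon 13 (chr5:8702387-8702536 and chr5:8824707-8824856), are printed in lower case since no base differs.
Abcb1a and Abcb1b: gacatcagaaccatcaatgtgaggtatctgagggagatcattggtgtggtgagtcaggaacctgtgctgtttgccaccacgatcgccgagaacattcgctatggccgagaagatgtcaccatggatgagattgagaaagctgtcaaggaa
A stretch of 90 coding bases in exon 16 is shown as the opposite case, chr5:8714894-8714983 for Abcb1a and chr5:8827333-8827422 for Abcb1b. Capitals mark its 29 mismatched positions, any of which tells the genes apart.
Abcb1a: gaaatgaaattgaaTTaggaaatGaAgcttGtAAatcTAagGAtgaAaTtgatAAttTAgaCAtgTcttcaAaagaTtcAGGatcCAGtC
Abcb1b: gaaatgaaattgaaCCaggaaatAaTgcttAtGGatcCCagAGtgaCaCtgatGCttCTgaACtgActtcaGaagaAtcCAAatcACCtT
Reads from the 338 bases and the other shared stretches may have been dropped or assigned to either gene in the authors' counting, and the levels of the pair are uncertain to that extent.

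Promoters are shown for the pair and for Abcc4, the genes whose HCD livers varied most relative to their mean, since neighbours of such similar coding sequence can differ in the sequence before their start sites. RefSeq windows on GRCm38.p6, from 250 bases before to 50 bases after a start site, were found for 4 of the 5 genes (7 windows, none for Abcc6). Capitals mark matches, on either strand, to the nuclear receptor half-site AGGTCA or its variant AGTTCA, the antioxidant response element core TGACNNNGC, the xenobiotic response element core GCGTG, the CCAAT box, the GC box GGGCGG or the TATA box TATAAA. One window is printed for each, which for Abcc4 is 1 of 2. The windows are chr5:8566841-8567140 on the plus strand for Abcb1a, chr5:8797897-8798196 on the plus strand for Abcb1b and chr14:118706170-118706469 on the minus strand for Abcc4.
Abcb1a promoter: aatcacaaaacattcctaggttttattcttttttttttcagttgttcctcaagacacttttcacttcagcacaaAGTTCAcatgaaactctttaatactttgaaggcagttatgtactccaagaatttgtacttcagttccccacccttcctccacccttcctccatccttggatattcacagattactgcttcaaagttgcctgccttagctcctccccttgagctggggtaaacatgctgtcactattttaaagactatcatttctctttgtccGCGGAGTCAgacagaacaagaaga
Abcb1b promoter: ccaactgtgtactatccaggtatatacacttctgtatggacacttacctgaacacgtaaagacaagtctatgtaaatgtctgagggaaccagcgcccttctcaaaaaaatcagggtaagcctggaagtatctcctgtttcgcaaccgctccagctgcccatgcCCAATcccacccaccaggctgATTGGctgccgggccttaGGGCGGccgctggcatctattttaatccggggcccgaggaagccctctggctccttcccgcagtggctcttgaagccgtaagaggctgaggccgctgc
Abcc4 promoter: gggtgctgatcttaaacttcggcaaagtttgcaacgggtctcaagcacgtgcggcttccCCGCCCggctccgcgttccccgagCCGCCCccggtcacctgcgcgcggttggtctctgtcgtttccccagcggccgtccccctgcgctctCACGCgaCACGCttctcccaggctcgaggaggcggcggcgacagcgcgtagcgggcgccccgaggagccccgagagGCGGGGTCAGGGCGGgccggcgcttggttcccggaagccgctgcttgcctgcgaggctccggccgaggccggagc
The Abcb1a window held AGTTCA at -176 and TGACNNNGC on the minus strand at 26, counted from the start site, and its GC content was 40.3%. AGTTCA occurred in 14.0% and TGACNNNGC in 12.4% of all 32851 windows. The RefSeq start site of Abcb1a, at 8567091, lies 92986 bases before the GENCODE start of the gene. The Abcb1b window shared none of these matches. It held CCAAT at -87 and on the minus strand at -66 and a GC box at -48, with 55.0% GC, where 37.4% of all windows held CCAAT and 35.7% a GC box. The printed Abcc4 window had 72.7% GC, TGACNNNGC on the minus strand at -25, which ends directly before a GC box at -16, and GCGTG on the minus strand at -101 and -94. It also held GC boxes on the minus strand at -191 and -167. The other Abcc4 window, chr14:118676882-118677181, had 47.3% GC and a TGACNNNGC on the plus strand at -23 as its single match. GCGTG was present in 32.4% of all windows. These matches describe letters and say nothing of which factor was bound.

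Abcb1a had 1.39, 0.907 and 1.69 CPM in RD replicates 1, 2 and 3 and 27.0, 5.51 and 5.92 CPM in HCD replicates 1, 2 and 3. The lowest HCD liver was above the highest RD liver, as it was for 14.0% of all genes tested. HCD replicate 1 stood far above the other 2 HCD livers. These levels rest on 29, 13 and 39 counts with RD and 534, 80 and 73 counts with HCD. Counting error alone (95% Clopper-Pearson intervals) left 1.2 to 2.31 CPM for the highest RD liver and 4.37 to 6.86 CPM for the lowest HCD liver, as a description of the depth behind them. The means were 1.33 ± 0.397 CPM (SD, n = 3) with RD and 12.8 ± 12.3 CPM (SD, n = 3) with HCD, a ratio of 9.62, and the fitted log2 fold change was 3.25 (standard error 0.66). Without HCD replicate 1 the HCD mean was 5.72 CPM and the log2 fold change 2.08 (standard error 0.41), so that this liver carried part of the size of the rise and not its direction.

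**Figure D1:**
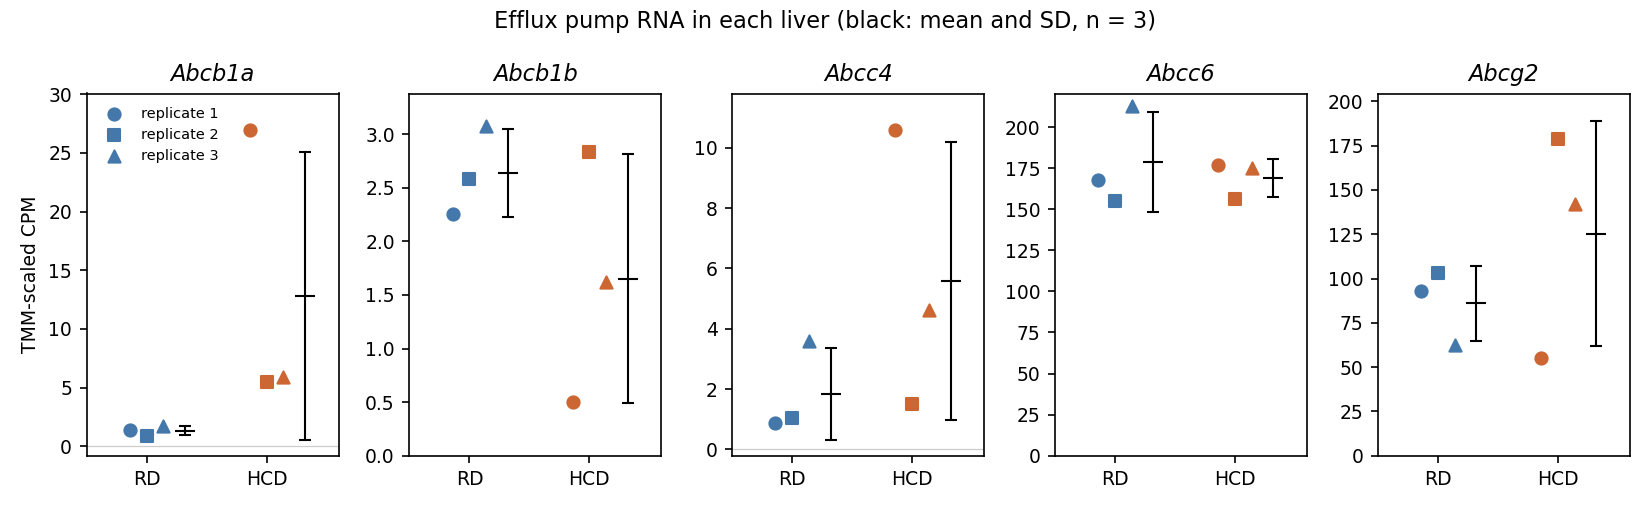
TMM-scaled CPM (y axis, linear, a scale of its own for each gene) of the 5 efflux pump genes in each RD and HCD liver, with the mean and SD of 3 livers in black. Each HCD value of Abcb1a lies above each RD value, with HCD replicate 1 at 27.0 CPM, while the diets overlap for the other 4 genes.

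The neighbouring gene Abcb1b, the second P-glycoprotein gene, took another course. It had 2.26, 2.58 and 3.08 CPM in the RD livers and 0.505, 2.83 and 1.62 CPM in the HCD livers. The diets overlapped, because HCD replicate 2 lay between RD replicates 2 and 3, and the lowest value was that of HCD replicate 1, the liver with the most Abcb1a. The means were 2.64 ± 0.415 CPM with RD and 1.65 ± 1.16 CPM with HCD (SD, n = 3). The log2 fold change was -0.69 (standard error 0.58). It did not pass the threshold of 0.05 on p-values adjusted by Benjamini-Hochberg across the table (adjusted p = 0.533, quasi-likelihood F test of edgeR). The exact two-sided permutation test over livers gave p = 0.3, where 3 livers against 3 allow no p under 0.1. Without HCD replicate 1 the log2 fold change was -0.24 (adjusted p = 0.804, edgeR).

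Since the pair encodes 1 kind of pump, its balance was followed in each liver. Of the counts of both genes together, Abcb1a made up 38.2%, 26.0% and 35.5% in the RD livers and 98.2%, 66.1% and 78.5% in the HCD livers. Abcb1b was thus the more counted gene in every RD liver and Abcb1a in every HCD liver. Per length, the ratio of Abcb1a to Abcb1b FPKM (fragments per kilobase of gene, scaled to the library total) was 0.9, 0.512 and 0.801 with RD and 77.9, 2.84 and 5.32 with HCD. The sum of the pair, which does not depend on how shared reads were divided between its members, was 3.65, 3.49 and 4.78 CPM with RD and 27.5, 8.34 and 7.54 CPM with HCD. Its log2 fold change of 1.87 (standard error 0.49) was smaller than that of Abcb1a alone. Reads dropped as ambiguous would be missing from this sum as well.

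Abcc4, the basolateral exporter MRP4, had 0.865, 1.05 and 3.6 CPM in the RD livers and 10.6, 1.52 and 4.62 CPM in the HCD livers. RD replicate 3 was above HCD replicate 2, so the diets overlapped, and HCD replicate 1 was again the highest liver. The counts behind these levels were 18, 15 and 83 with RD and 209, 22 and 57 with HCD. Abcc4 differed by a log2 fold change of 1.58 (standard error 0.75) between 1.84 ± 1.53 CPM with RD and 5.57 ± 4.6 CPM with HCD (SD, n = 3). It did not pass the threshold (adjusted p = 0.273 in edgeR, exact two-sided permutation p = 0.2). The size hung on single livers: it was 0.71 without HCD replicate 1 (adjusted p = 0.64, edgeR) and 2.55 without RD replicate 3 (adjusted p = 0.155, edgeR).

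Abcg2, the canalicular half-transporter BCRP, was far more abundant, with 93.1, 103 and 62.3 CPM in the RD livers and 55.2, 179 and 142 CPM in the HCD livers. HCD replicates 2 and 3 exceeded every RD liver, whereas HCD replicate 1 was the lowest of all 6. The means were 86.0 ± 21.0 CPM with RD and 125 ± 63.3 CPM with HCD (SD, n = 3), or 0.54 on the log2 scale (standard error 0.38), which did not pass the threshold (adjusted p = 0.453 in edgeR, exact two-sided permutation p = 0.4). Without HCD replicate 1 the HCD mean was 160 CPM and the log2 fold change 0.90 (standard error 0.22, adjusted p = 0.0785, edgeR). Without HCD replicate 2 the log2 fold change was 0.19, so the outcome for Abcg2 moved more with the liver left out than with any other choice of processing that was tried.

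Abcc6, the basolateral protein MRP6, had the smallest spread of the 5 between HCD livers. It had 168, 155 and 213 CPM in the RD livers and 177, 156 and 175 CPM in the HCD livers, which overlapped throughout. The means were 179 ± 30.3 CPM with RD and 169 ± 11.7 CPM with HCD (SD, n = 3). The log2 fold change was -0.08 (standard error 0.16, adjusted p = 0.813 in edgeR, exact two-sided permutation p = 0.9), and its sign turned to 0.01 when a trend with gene length was removed and to 0.07 without RD replicate 3. Without HCD replicate 1 it was -0.11. Its HCD livers varied by 6.89% of their mean, against 95.9% for Abcb1a, 82.6% for Abcc4, 70.3% for Abcb1b and 50.6% for Abcg2. With RD its coefficient of variation of 16.9% was close to the 15.7% of Abcb1b.

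Of the 4 relatives of Abcb1a, 0 passed edgeR's threshold in either direction, 0 had an unadjusted p under 0.05 and 0 were called by DESeq2, where 3.27% of all genes tested passed edgeR's threshold (1.95% higher and 1.32% lower with HCD) and 20.9% had an unadjusted p under 0.05. DESeq2 called 6.97% of its genes. The diets separated fully for none of the 4, while this held for 27.6% of all genes tested. With standard errors of 0.38 to 0.75 for Abcb1b, Abcc4 and Abcg2, changes of their size were not detectable at this number of livers, and an absence of change is not shown.

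**Figure D2:**
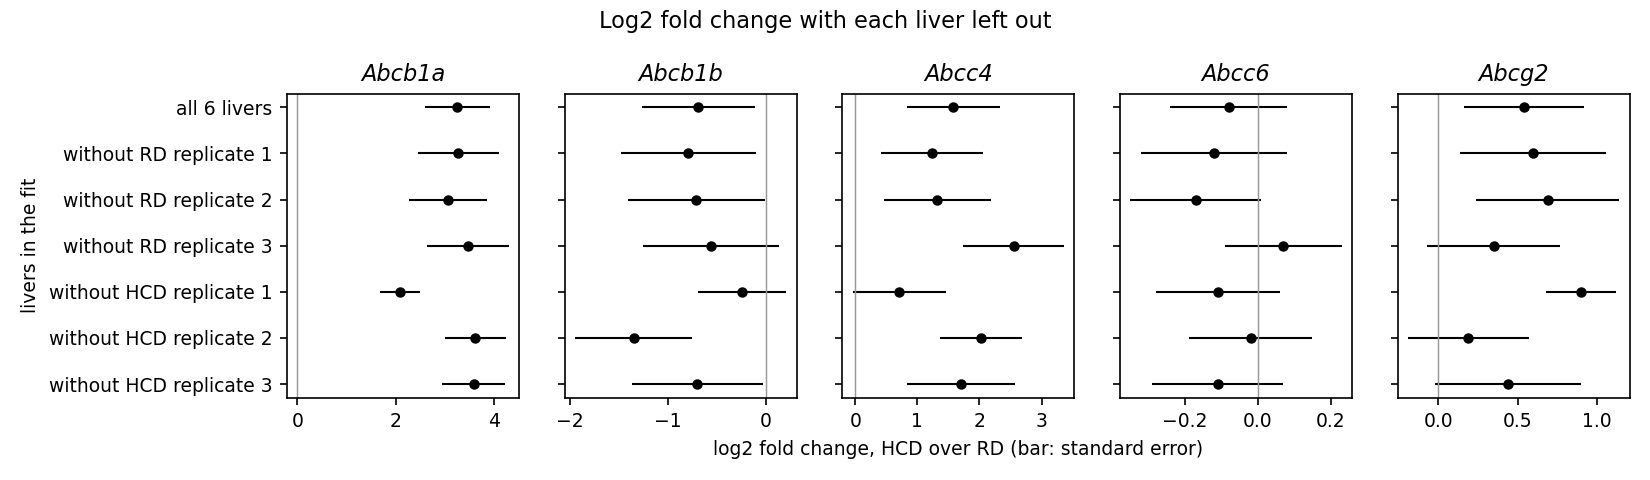
Log2 fold change of HCD over RD (x axis, a scale of its own for each gene; bars are standard errors) for the 5 efflux pump genes with all 6 livers and with each liver left out (y axis). Abcb1a, chosen for its rise and without overlap of the diets, could only stay above 0 and is lowest without HCD replicate 1 (2.08). Abcc6 crosses 0 without RD replicate 3 (0.07).

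The livers did not move together across the 5 genes. HCD replicate 1 had the highest Abcb1a and Abcc4 and the lowest Abcb1b and Abcg2 of the 6 livers. Over all genes tested it was the highest liver in 19.4% and the lowest in 19.4%, compared with 22.2% and 23.5% for HCD replicate 3 and 14.1% and 13.8% for HCD replicate 2. In log2 deviations from the mean of the 6 livers, HCD replicate 1 lay at 2.68 for Abcb1a, 1.81 for Abcc4, -1.28 for Abcb1b and -0.81 for Abcg2, but at 0.03 for Abcc6. This liver was also the one with Xist counts. It had the highest summed CPM of endothelial markers (277 against 135 to 220 in the other livers) and of Kupffer cell and leukocyte markers (359 against 116 to 315). Its stellate sum was also the highest (341 against 201 to 306), but the stellate genes, named after their values were seen, differed. Dcn, Reln and Pdgfrb were highest in this liver, and Lrat, Des and Hand2 in HCD replicate 3. Col1a1 (8.74 CPM) and Col3a1 (24.3 CPM) were lowest of the 6 livers in HCD replicate 1. Its cholangiocyte sum (80.5 CPM) was below those of the other HCD livers (92.9 and 119) and within the RD range (58.4 to 114). The part of these differences in the Abcb1a, Abcb1b, Abcc4 and Abcg2 values was not tested.

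**Figure D3:**
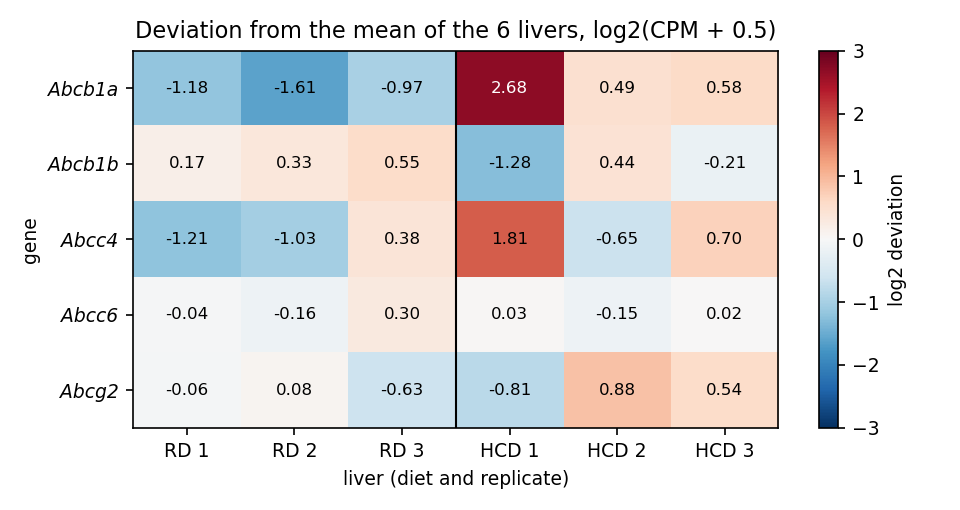
Log2 deviation of each liver (columns) from the mean of the 6 livers, on log2 of CPM plus 0.5, for the 5 efflux pump genes (rows), with red above and blue below that mean. The HCD replicate 1 column holds both the highest value (2.68 for Abcb1a) and, for Abcb1b, -1.28, while the Abcc6 row stays between -0.16 and 0.30.

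Per length, the order of the 5 genes with RD was Abcc6 (45.8 ± 8.76 FPKM), Abcg2 (15.4 ± 3.48), Abcb1b (0.484 ± 0.0846), Abcc4 (0.425 ± 0.363) and Abcb1a (0.356 ± 0.113), each as mean ± SD of 3 livers. The first 2 were separated from each other and from the rest by more than their spread, whereas Abcc4 did not differ from its neighbours beyond its spread. Abcb1a was below Abcb1b in each of the 3 RD livers. In RD replicate 1 the gap (0.37 against 0.411 FPKM) was smaller than the SD of either gene. With HCD the order was Abcc6 (44.0 ± 3.98 FPKM), Abcg2 (22.6 ± 11.1), Abcb1a (3.5 ± 3.4), Abcc4 (1.31 ± 1.09) and Abcb1b (0.304 ± 0.208), so that Abcb1a passed from the last place to the third. Its spread with HCD reached down to the mean of Abcc4. Abcc6 RNA exceeded Abcb1a RNA 115-, 164- and 120-fold per length in the RD livers and 6.27-, 27.1- and 28.4-fold in the HCD livers. Beside Abcg2, Abcb1a had 7.43 against 10.2 FPKM in HCD replicate 1, 1.46 against 31.7 in HCD replicate 2 and 1.62 against 26.0 in HCD replicate 3, so the levels were close in the first of these livers and far apart in the others.

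Genes with the pattern most like that of a pump across the 6 livers were found by the root mean square difference of log2 deviations, among the 12187 tested genes that averaged 1 CPM or more. The genes nearest to Abcb1a were Cyp4a10, a fatty acid hydroxylase (0.34), Sult1c2, a sulfotransferase (0.36), Acot2, a mitochondrial acyl-CoA thioesterase (0.37), Serpinb1a, a protease inhibitor (0.40), the noncoding RNA Dio3os (0.40), Rad51b, a DNA repair gene (0.45), Fabp7, a fatty acid binding protein (0.47), and Slc16a7, a monocarboxylate carrier (0.50). Cyp4a10, for example, had 41.1, 64.0 and 56.4 CPM with RD and 853, 174 and 231 CPM with HCD, with its maximum in the same liver as Abcb1a. None of the other 4 pumps was among these 8 genes. Among the genes nearest to Abcb1b were the tetraspanin Tspan33 (0.15) and Gm30262 (0.17). Abcc4 was nearest to the immediate early gene Fos (0.34), to Mgst3, a microsomal glutathione transferase (0.35), and to the prolactin receptor Prlr (0.36). Abcg2 was nearest to Cyp2d40 (0.14), to Pdgfa, a growth factor (0.15), and to Bmyc (0.16). Abcc6 was nearest to Luc7l3 (0.04), Tlr13 (0.04) and Sugt1 (0.05), all of which varied little. With 6 livers these distances describe the libraries, and genes share each liver's depth and composition.

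Among the other ABC transporter genes of the tables, 33 of 37 were tested and 3 passed edgeR's threshold, all higher with HCD, where 1.95% of all genes tested were called higher. They were Abcg5 and Abcg8, the paired canalicular exporter of cholesterol and plant sterols, and Abcg1, which moves cholesterol to lipoproteins. Abcg8 rose from 78.5 ± 30.3 to 489 ± 28.8 CPM (SD, n = 3), or 2.64 on the log2 scale (standard error 0.26, adjusted p = 0.00407 in edgeR). Abcg5 rose by 2.74 on the log2 scale (standard error 0.35, adjusted p = 0.0104, edgeR), from 53.0 to 356 CPM, and Abcg1 by 2.10 (standard error 0.36, adjusted p = 0.0258, edgeR), from 4.13 to 17.9 CPM. Abcb1a, chosen for its rise, had the largest log2 fold change of the 38 ABC transporter genes tested, together with the largest standard error of the 4 largest. This rank hung on HCD replicate 1: without it Abcb1a was at 2.08, below Abcg5 (2.81), Abcg8 (2.67) and Abcg1 (2.31). With limma on FPKM plus 1, Abcb1a (1.48) was also below Abcg5 (2.83), Abcg8 (2.68) and Abcg1 (1.57). None of the 33 passed the threshold downward. At an unadjusted p under 0.05, 5 were higher and 3 lower (Abca6, Abcc10 and Tap1, named after their values were seen), where 11.1% of all genes tested were higher and 9.81% lower. DESeq2 called 5 higher and 0 lower, where it called 3.88% of its genes higher and 3.09% lower. Their median log2 fold change was 0.04, beside 0.007 over all genes tested, and 17 were positive and 16 negative. Without RD replicate 1 the calls of Abcg5 (adjusted p = 0.0569, edgeR) and Abcg1 (adjusted p = 0.121, edgeR) were lost. Abcg1 also fell short without RD replicate 2 (adjusted p = 0.113, edgeR) and without HCD replicate 3 (adjusted p = 0.0699, edgeR), and with the replicate number as a block (adjusted p = 0.0632, edgeR).

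The main canalicular and basolateral exporters of bile were compared with the 5 pumps whatever their values. Abcb4, which follows Abcb1b on chromosome 5, had 211 ± 37.3 CPM with RD and 317 ± 31.4 CPM with HCD (SD, n = 3). Its diets did not overlap, but its log2 fold change of 0.58 did not pass the threshold in edgeR (adjusted p = 0.107) and did in DESeq2 (adjusted p = 0.0288). Abcc3, a basolateral exporter of glucuronides and bile acids, behaved likewise, with 164 ± 40.4 and 278 ± 78.0 CPM, a log2 fold change of 0.76 (adjusted p = 0.134 in edgeR and 0.0217 in DESeq2) and no overlap. For Abcb11, the bile salt export pump, the difference was -0.04 on the log2 scale (adjusted p = 0.925, edgeR), which turned to 0.04 with the length trend removed and to 0.05 without RD replicate 3 or HCD replicate 1. For Abcc2, the canalicular exporter of conjugates, it was 0.19 (adjusted p = 0.585, edgeR).

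**Figure D4:**
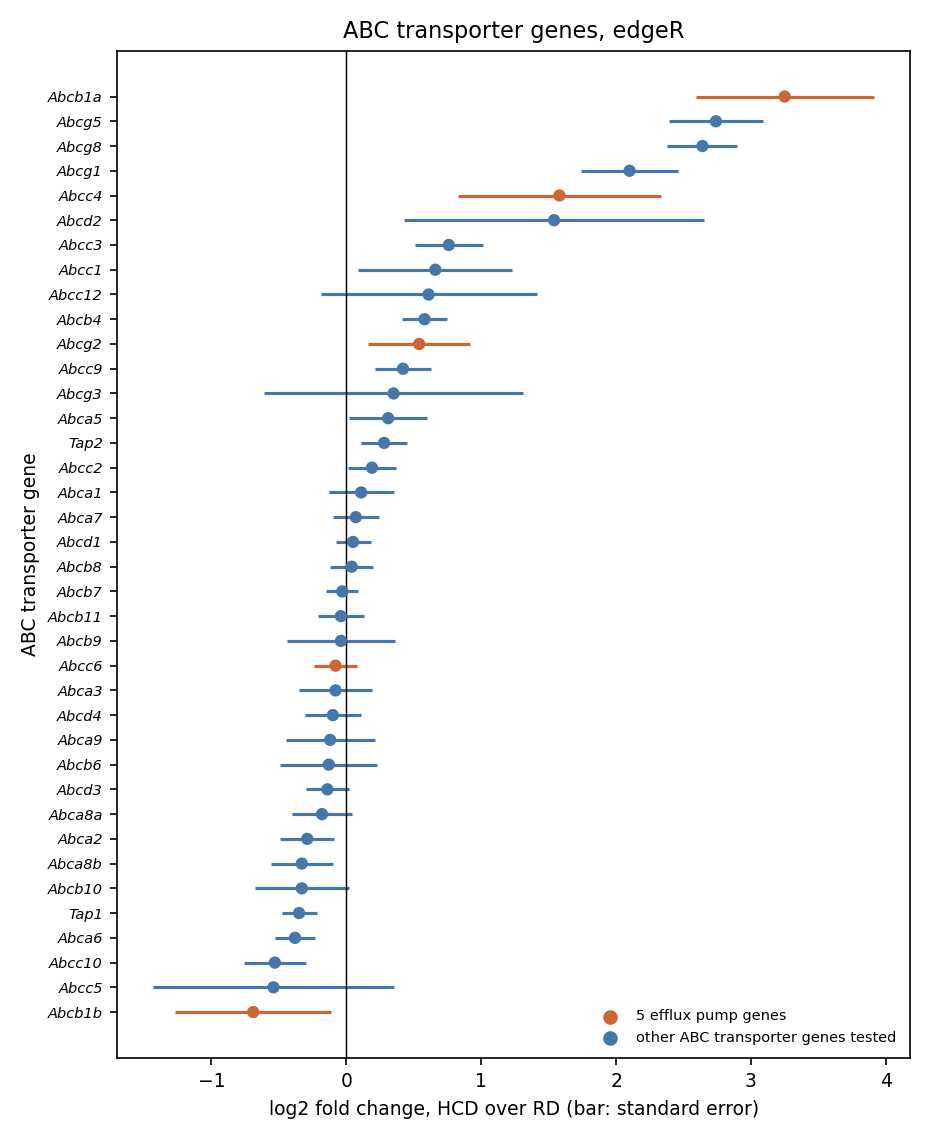
Log2 fold change of HCD over RD (x axis; bars are standard errors) for the 5 efflux pump genes (orange) and the 33 other ABC transporter genes tested (blue), ordered by size. With all livers, Abcb1a is at the top (3.25) above Abcg5, Abcg8 and Abcg1, and Abcb1b is at the bottom (-0.69). Without HCD replicate 1, Abcb1a was at 2.08, below Abcg5 (2.81), Abcg8 (2.67) and Abcg1 (2.31), and Abcb1b was at -0.24.

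Further lists covered the system to which efflux pumps belong, and they are described by counts without a list test. Of 11 xenobiotic and bile acid sensors and their partners, all tested, 1 rose and 1 fell, where 3.27% of all genes tested were called. Nr0b2, a repressor induced by the bile acid receptor FXR, rose from 35.5 to 89.7 CPM (log2 fold change 1.34, adjusted p = 0.0303, edgeR), and Rxra, the partner of PXR, CAR and FXR, fell from 516 to 321 CPM (log2 fold change -0.68, adjusted p = 0.0449, edgeR). The receptor genes themselves did not pass, with log2 fold changes of 0.50 for Nr1i2, which encodes PXR (adjusted p = 0.133), and 0.69 for Nr1i3, which encodes CAR (adjusted p = 0.416), both in edgeR and both chosen after their values were seen. The median of the list was 0.14. At an unadjusted p under 0.05 in edgeR, 3 of the 11 were higher and 1 lower, beside 11.1% and 9.81% of all genes tested. DESeq2 called 1 higher and 1 lower, beside 3.88% and 3.09% of its genes. Both calls were lost without RD replicate 1, 2 or 3 or HCD replicate 3, with adjusted p in edgeR of 0.174, 0.189, 0.0795 and 0.0921 for Rxra and 0.106, 0.0696, 0.0788 and 0.0895 for Nr0b2. Both were also lost with the length trend removed (adjusted p = 0.0907 for Rxra and 0.0628 for Nr0b2, edgeR) and with the replicate block (0.0912 and 0.0657). Rxra was lost as well without HCD replicate 1 (adjusted p = 0.0661, edgeR) and HCD replicate 2 (adjusted p = 0.0701, edgeR).

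Of 20 enzyme genes known to be induced through PXR or CAR, 16 were tested and 3 passed the threshold, all upward, where 1.95% of all genes tested were called higher. DESeq2 called 6 of the 16 higher and 0 lower, beside 3.88% and 3.09% of its genes. Cyp3a11, the main PXR-induced cytochrome of mouse liver, rose from 2730 to 5710 CPM (log2 fold change 1.06, adjusted p = 0.0329, edgeR). Cyp3a25 rose from 479 to 941 CPM (0.98, adjusted p = 0.0203, edgeR) and Cyp2a5, a coumarin hydroxylase, from 205 to 607 CPM (1.57, adjusted p = 0.0124, edgeR). None passed downward, and at an unadjusted p under 0.05 there were 7 higher and 1 lower, beside 11.1% and 9.81% of all genes tested. The median log2 fold change was 0.54, beside 0.007 over all genes tested. A near miss in each direction was chosen after its values were seen. Alas1, the first enzyme of heme synthesis, had 654, 498 and 359 CPM with RD and 132, 305 and 119 CPM with HCD, without overlap (log2 fold change -1.44, adjusted p = 0.0803, edgeR). Cyp2b10, the classic CAR target, had 2.11, 1.33 and 1.52 CPM with RD and 44.7, 3.72 and 12.0 CPM with HCD, again highest in HCD replicate 1, and missed the threshold (log2 fold change 3.60, adjusted p = 0.0522, edgeR). All 3 calls were lost without RD replicate 1 (adjusted p 0.0648 to 0.157, edgeR) or RD replicate 2 (adjusted p 0.0696 to 0.151, edgeR). Without HCD replicate 3, Cyp3a11 (adjusted p = 0.0792, edgeR) and Cyp3a25 (adjusted p = 0.0535, edgeR) were lost, and without HCD replicate 2 Cyp3a11 (adjusted p = 0.0593, edgeR). The replicate block also ended the calls of Cyp3a11 (adjusted p = 0.0619, edgeR) and Cyp3a25 (adjusted p = 0.0558, edgeR).

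Of 12 solute carriers of organic anions, cations and bile acids, most of them for uptake, 11 were tested and 1 passed the threshold, upward, where 1.95% of all genes tested were called higher. Slc51b, a subunit of the basolateral organic solute transporter, which releases bile acids from the cell, had 0, 0.0698 and 0.174 CPM with RD and 3.03, 2.55 and 1.62 CPM with HCD (adjusted p = 0.0258, edgeR), where a count of 0 allows up to 0.130 to 0.243 CPM depending on the liver. The call was lost without RD replicate 1 (adjusted p = 0.0898, edgeR), RD replicate 2 (adjusted p = 0.119, edgeR) or HCD replicate 3 (adjusted p = 0.0511, edgeR), and with the replicate block (adjusted p = 0.0809, edgeR). None passed downward. At an unadjusted p under 0.05, 1 was higher and 1 lower (Slc22a7, an organic anion carrier, named after its values were seen, log2 fold change -1.84, adjusted p = 0.094 in edgeR), beside 11.1% and 9.81% of all genes tested. DESeq2 called 1 higher and 0 lower, beside 3.88% and 3.09% of its genes. Slco1a1, an organic anion carrier with strongly sex-biased liver expression, was looked at after its values were seen: it had 440, 422 and 454 CPM with RD and 3.23, 308 and 204 CPM with HCD. All 3 HCD livers were below every RD liver, with HCD replicate 1 the lowest, and it did not pass the threshold (adjusted p = 0.492, edgeR). Whether the sex of the livers had a part in these values or in those of the pumps was not tested.

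Markers of other liver cells were set beside the pumps because RNA of bile ducts, vessels and immune cells can hold them too. In edgeR 0 of the 7 cholangiocyte, 8 endothelial, 8 Kupffer cell and leukocyte and 8 stellate cell markers tested passed the threshold, where 3.27% of all genes tested did. At an unadjusted p under 0.05 there were 0, 2, 3 and 2, where 20.9% of all genes tested had such a p, and DESeq2 called 0, 1, 2 and 0, where it called 6.97% of its genes. Their summed levels ranged from 58.4 to 114 CPM with RD and 80.5 to 119 with HCD for cholangiocytes, from 135 to 220 and 178 to 277 for endothelial cells, from 116 to 192 and 148 to 359 for Kupffer cells and leukocytes, and from 201 to 216 and 209 to 341 for stellate cells. All 8 Kupffer cell and leukocyte markers and all 8 stellate markers tested had a positive log2 fold change, and none of the lists' genes was at 0 in every liver. The part of these cells in the Abcb1a rise was not tested.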

How the data were processed

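Liver RNA of 6 mice (3 RD, 3 HCD for 3 days, grouped by the labels) was sequenced in 1 library per liver. The authors deposited whole-number read counts per gene and FPKM. The log2 fold changes and the p-values that the authors deposited, HCD against RD, were not used. The submitters' processing notes name STAR, HTSeq, DESeq2, edgeR and build GRCm39, and strand is not stated. Gene positions and exon lengths come from GENCODE M21.

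Counts were tested in edgeR 4.0.16 (R 4.3.3) with filterByExpr, TMM factors and a quasi-likelihood F test of diet, adjusted by Benjamini-Hochberg and called under 0.05. CPM are TMM-scaled. Simulated data were used to test the script. Livers differed beyond counting error, so no library was a copy. Depth was 13771630 to 23129576 counts, and intervals cover counting error only. The p-values set the difference between the diets against the spread between these livers. Replicate numbers did not pair the livers.

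The members and lists were chosen with earlier results of these data known. Named are the 5 members, 6 ABC genes regardless of value, the 3 largest called rises and falls of each list, and the nearest patterns, of which 1 gene is not reported here. Genes named outside this rule are marked as chosen after their values were seen. Alternatives were DESeq2 1.42.0, other size factors and filters, limma 3.58.1 on log2 of FPKM plus 1 or 0.1, removal of a length trend, the replicate block, the summed Abcb1 pair, and each liver left out. Figures used matplotlib 3.10.9.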

Additional observations from a re-analysis of the deposited data

How the results depend on the processing

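Since Abcb1a was chosen for its rise and its diets did not overlap, its sign was in effect fixed in advance. Its log2 fold change stayed positive under every alternative. It was 2.08 to 3.61 when each liver was left out (lowest without HCD replicate 1), 1.48 with limma on FPKM plus 1, where the added 1 exceeds the RD level, and 1.87 for Abcb1a and Abcb1b summed. Abcb1b stayed negative, Abcc4 and Abcg2 positive, and none of the 3 was called under any alternative run (adjusted p 0.243 to 0.804, 0.123 to 0.64 and 0.0785 to 0.806). Leaving out livers gave -1.35 to -0.24 for Abcb1b, 0.71 to 2.55 for Abcc4 and 0.19 to 0.90 for Abcg2. Abcc6 turned to 0.01 with the length trend removed and ranged from -0.17 to 0.07 over the livers left out (0.07 without RD replicate 3), and Abcb11 turned to 0.04 with the length trend removed and ranged from -0.13 to 0.05 over the livers left out (0.05 without RD replicate 3 or HCD replicate 1). The cause was not tested.

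The number of genes called, 428, was 992 with DESeq2, 649 without a filter, 251 with the length trend removed and 39 to 387 with a liver left out (39 without RD replicate 1, 57 without RD replicate 2, 104 without HCD replicate 3 and 146 without RD replicate 3). Other ABC transporter genes called went from 3 to 5 with DESeq2 and to 1 to 3 with a liver left out. Sensors called went from 2 to 0 with the length trend removed and 0 to 2 with a liver left out. Enzymes called went from 3 to 6 with DESeq2, 8 without a filter and 0 to 4 with a liver left out. Solute carriers called went from 1 to 2 without a filter, 0 with a mean of at least 50 counts and 0 to 1 with a liver left out. With the replicate block, 136 genes, 2 other ABC transporter genes, 0 sensors, 1 enzyme and 0 solute carriers were called. The numbers did not pair the livers (correlations of same-numbered livers -0.08, 0.12 and -0.03). For Abcb4, Abcb11, Abcc2, Abcc3, Abcg1, Abcg5, Abcg8, Rxra, Nr0b2, Cyp2a5, Cyp3a11, Cyp3a25 and Slc51b, 168 of 207 values kept their direction and side of the threshold, 34 lost and 2 gained the call, and 3 changed sign. The alternatives were not run for the other genes named. Abcb1b and Slc51b had too few counts for the filter at a mean of 50. The 3 livers per diet, and counts as low as 10 for Abcb1b and 13 for Abcb1a, limit what these data resolve.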
